A study of Drosophila melanogaster with 4 samples.

Results

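Genes for the repression and deadenylation of messenger RNA, 10 in all, were followed in testes of Drosophila melanogaster: me31B, tral, cup, twin, Pop2, Not1, orb2, Fmr1, pAbp and smg. They were taken by name from the deposited expression tables, which list 14664 genes, and each of the 10 names matched 1 gene. The groups were testes mutant for both Phf7 and bam and testes mutant for bam alone, with 2 libraries each, from flies no older than 3 days after eclosion. The alleles and the number of animals per library are not given in the labels, and both groups carry the bam mutation, so no testis with normal bam was compared. Libraries of 1 genotype are biological replicates per the labels, which do not say that they came from separate cultures, so p-values cover the spread between these libraries. Loss of bam keeps germ cells in the mitotic divisions, and Phf7 encodes a PHD finger protein of the male germline. The comparison asks which transcripts differ when Phf7 is lost on top of bam.

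A messenger RNA is protected by its poly(A) tail and the poly(A)-binding protein on it. Removal of the tail by the CCR4-NOT complex, in which Not1 is the scaffold and twin (CCR4) and Pop2 (CAF1) are the nucleases, silences the message and opens it to decapping. Repressed messages are packed into particles with the DEAD-box helicase Me31B, the Lsm-domain protein Trailer hitch (tral) and the eIF4E-binding protein Cup, a set best known from the fly ovary. Sequence-specific proteins such as Smaug (smg), the CPEB family member Orb2 and the fragile X protein Fmr1 choose the targets. In the male germline Orb2 is known for its role in meiosis and spermatid differentiation. Bam itself acts as a translational repressor that can contact the CCR4-NOT complex, a contact not examined here.

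None of the 10 genes passed the test for a difference between the genotypes. FPKM, the abundance of fragments relative to transcript length and to the size of the library, were analysed as log2(FPKM + 1), and genes with a mean of at least 1 FPKM were tested with limma, which left 8965 genes, all 10 of these among them. Of the 10 genes, 0 had an adjusted p under 0.05 in limma and 0 an unadjusted p under 0.05; robust moderation in limma also called 0. Of all genes tested, 0.234% were called in either direction (0.123% higher and 0.112% lower), so a count of 0 among 10 is near the background. The changes lay between -0.02 for twin and 0.21 for orb2, with a median of 0.07, beside a median of 0.03 over all genes tested. Every 95% interval of a change included 0, and together they reached from -0.39 to 0.53 on the log2(FPKM + 1) scale. A miss of the threshold with 2 libraries a group does not show equal levels; the intervals say how large a change these libraries leave possible. Their half-widths were 0.30 to 0.38, with a median of 0.34, beside 0.36 over all genes tested.

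**Figure D1:**
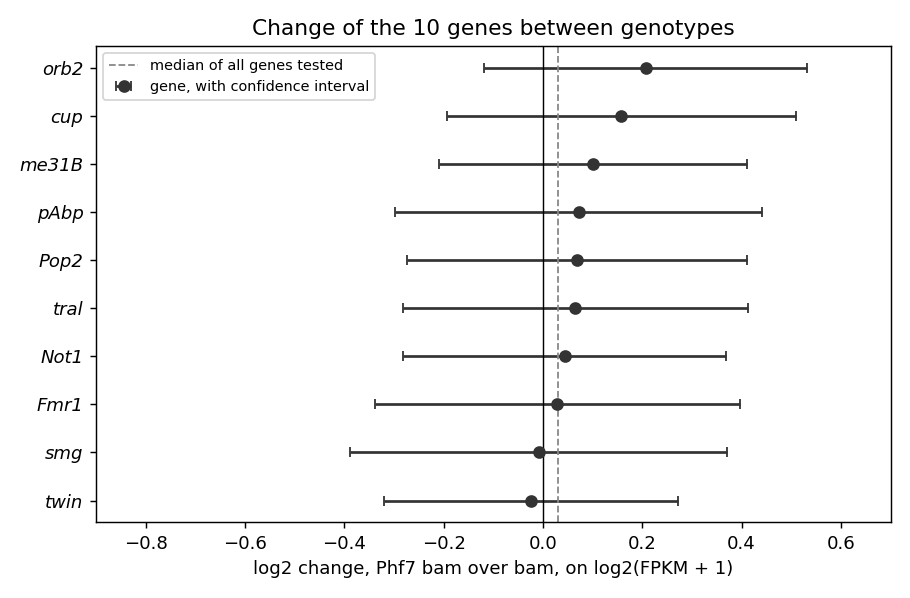
Log2 change of each of the 10 genes, Phf7 bam over bam, on the log2(FPKM + 1) scale (points), with 95% intervals from limma (bars) and the median of all 8965 genes tested (dashed line). All 10 intervals cross 0, from orb2 at 0.21 to twin at -0.02.

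Levels differed far more between the genes than between the genotypes. FPKM is scaled to length, so levels of different genes can be set side by side. For pAbp, Not1, tral and twin the deposited FPKM lay outside its own deposited interval in every library. The same held for other genes named below, among them vas, nos, zpg, Amy-p and gnu. How this bears on their levels and ratios was not tested. pAbp was the highest, with a mean of 1231 FPKM over the 4 libraries, and orb2 the lowest at 6.90 FPKM, a span of 179-fold. In between came Not1 at 202 FPKM, Pop2 at 118, me31B at 111, tral at 105, Fmr1 at 85.2, twin at 68.1, cup at 41.5 and smg at 29.5 FPKM. This order was the same in all 4 libraries. Ranges over the libraries overlapped between Pop2 and me31B and between me31B and tral, so these neighbours are not separated by more than their spread, while every other neighbouring pair was apart. pAbp lay above 98.9% of the genes tested and 6 of the others, from Not1 down to twin, above 87.0% to 96.1% of them. orb2 lay above 26.4%.

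**Figure D2:**
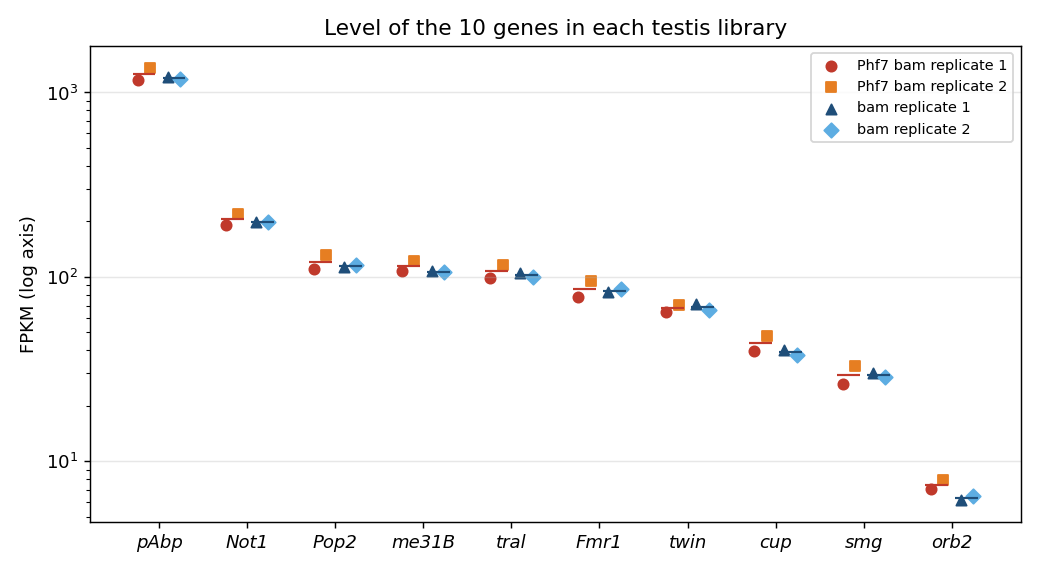
FPKM (log axis) of the 10 genes in the 4 testis libraries, ordered by mean level; points are libraries and short lines the mean of each genotype. The genes span 6.90 FPKM (orb2) to 1231 FPKM (pAbp), and Phf7 bam replicate 2 is the highest library for all genes but twin.

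Of the 3 genes of the repressive particle, 0 were called. The helicase gene me31B (dm3, 2L, 10239326 to 10242172) had 107.6 and 122.3 FPKM in Phf7 bam testes, against 107.5 and 106.3 FPKM in bam testes. Both double mutant libraries were above both bam libraries, but the lower of them narrowly; the same separation was found for 20.5% of all genes tested. The change was 0.10 (SE 0.118, 95% interval -0.21 to 0.41, limma adjusted p = 0.964).

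tral (3L, 12508127 to 12513214), whose product binds Me31B, had 98.2 and 117 FPKM in Phf7 bam testes and 105 and 99.7 FPKM in bam testes. The double mutant held both the lowest and the highest library, and the genotypes overlapped (change 0.07, SE 0.132, limma adjusted p = 0.981). cup (2L, 6663965 to 6674790) had 39.8 and 48.0 FPKM in Phf7 bam testes and 40.3 and 37.9 FPKM in bam testes. Its change of 0.16 (SE 0.134, 95% interval -0.19 to 0.51, limma adjusted p = 0.923) rested on Phf7 bam replicate 2, since replicate 1 lay between the bam libraries; without replicate 2 the change was 0.02. The cup locus also contains CG34310, a 563 bp gene on the same strand listed at 87.9 and 92.9 FPKM in Phf7 bam and 73.2 and 83.8 FPKM in bam testes, and how reads of the shared stretch were divided was not tested.

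Relative to me31B in the same library, which removes any difference in library scaling, tral stood at 0.933 ± 0.0299 in Phf7 bam and 0.957 ± 0.0260 in bam testes, and cup at 0.381 ± 0.0162 and 0.366 ± 0.0125 (SD, n = 2 each). tral was slightly below me31B and cup well below it in every library, per length. Neither ratio separated the genotypes.

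The CCR4-NOT genes overlapped between the genotypes. Not1 (2R, 5455019 to 5465985), the scaffold, had 191 and 219.7 FPKM in Phf7 bam testes, against 199 and 198 FPKM in bam testes, and the bam libraries fell between the double mutant ones (change 0.04, SE 0.124, 95% interval -0.28 to 0.37, limma adjusted p = 0.988). Pop2 (3L, 11991498 to 11996013) had 110.8 and 131 FPKM in Phf7 bam and 114 and 116 FPKM in bam testes, with the same arrangement (change 0.07, SE 0.130, limma adjusted p = 0.981). twin (3R, 20023310 to 20047687) had 64.4 and 70.6 FPKM in Phf7 bam and 70.9 and 66.4 FPKM in bam testes. It was the only one of the 10 genes whose highest value was in a bam library, and its change of -0.02 (SE 0.112, 95% interval -0.32 to 0.27, limma adjusted p = 0.989) had the shortest interval of the set.

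Within a library, twin reached 0.329 ± 0.0113 of Not1 in Phf7 bam testes and 0.345 ± 0.0151 of it in bam testes, and Pop2 0.589 ± 0.0127 and 0.579 ± 0.00996 (SD, n = 2 each). The order Not1, Pop2, twin therefore held in each library, and both ratios overlapped between the genotypes. The twin locus of 24378 bp contains CG17786 on the same strand, listed at 3.11 to 4.99 FPKM over the 4 libraries, and overlaps cav by 824 bp on the opposite strand. cav was listed at 0 in all 4 libraries. The Not1 locus overlaps CG1814 by 1054 bp on the opposite strand, and CG1814 was listed at 5.25 to 9.13 FPKM.

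**Figure D3:**
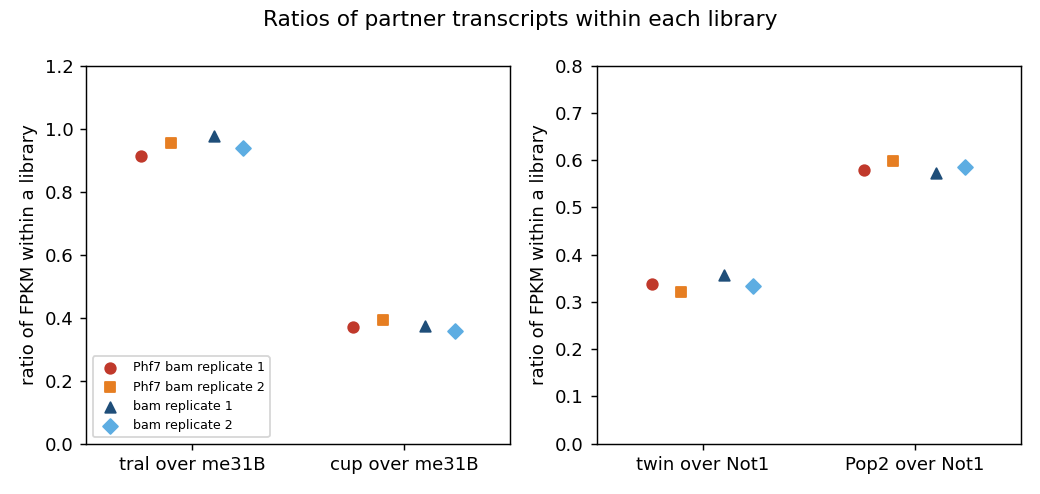
Ratio of FPKM within each library for tral and cup over me31B (left) and for twin and Pop2 over Not1 (right); points are libraries. The ratios overlap between the genotypes, with tral over me31B at 0.912 to 0.975 and Pop2 over Not1 at 0.572 to 0.598.

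Among the regulators that bind chosen messages, orb2 (3L, 8935392 to 8947550) had the largest change of the 10 genes. Its values were 7.04 and 7.89 FPKM in Phf7 bam testes, against 6.17 and 6.48 FPKM in bam testes. Both double mutant libraries were above both bam libraries, as for 20.5% of all genes tested, and the change of 0.21 did not pass the test (SE 0.124, 95% interval -0.12 to 0.53, limma adjusted p = 0.906; 0.343 or more in each alternative setting). It was the only one of the 10 genes with a level in Phf7 bam replicate 1 above its own mean over the libraries. orb, which encodes the other CPEB protein of the fly and is best known from oogenesis, was higher than orb2 in every library, at 39.6 and 49.7 FPKM in Phf7 bam and 49.0 and 48.9 FPKM in bam testes (change -0.14, limma adjusted p = 0.949). The ratio of orb2 to orb, chosen after these values were seen, was 0.168 ± 0.0136 in Phf7 bam and 0.129 ± 0.00474 in bam testes (SD, n = 2 each), and was given no test.

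Fmr1 (3R, 5927142 to 5935844), which represses translation of its targets, had 77.4 and 95.02 FPKM in Phf7 bam testes, against 82.5 and 85.7 FPKM in bam testes. The bam values lay inside the range of the double mutant (change 0.03, SE 0.140, 95% interval -0.34 to 0.40, limma adjusted p = 0.989). smg (3L, 8983637 to 8991089), which directs CCR4-NOT to nanos and other messages in the embryo, had 26.1 and 32.8 FPKM in Phf7 bam and 30.2 and 28.8 FPKM in bam testes. Here too the bam values lay inside, and the genotype means were the same to the first decimal, at 29.5 ± 4.75 and 29.5 ± 0.992 FPKM (SD, n = 2 each; change -0.01, limma adjusted p = 0.995). The smg interval, -0.39 to 0.37, was the widest of the set.

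pAbp (2R, 14027583 to 14033740), the gene of the cytoplasmic poly(A)-binding protein, had 1163 and 1365 FPKM in Phf7 bam testes, against 1210.2 and 1187 FPKM in bam testes. The bam values again lay between the double mutant ones (change 0.07, SE 0.141, 95% interval -0.30 to 0.44, limma adjusted p = 0.981). Its locus hosts 3 small nucleolar RNA genes on the same strand, each listed at 56.1 FPKM or less.

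By median ratio, the 2 Phf7 bam libraries stood further apart than the 2 bam libraries, in the 10 genes and over all genes tested. Phf7 bam replicate 2 held the highest value of the 4 for 9 of the 10 genes. This held for 57.4% of all genes tested, or 70.2% of those with a mean of at least 20 FPKM. Phf7 bam replicate 1 held the lowest value for 7 of the 10 genes and for 49.5% of all genes tested, or 55.8% of those with a mean of at least 20 FPKM. Phf7 bam replicate 2 stood 1.10 to 1.26 times above replicate 1 in the 10 genes, with a median of 1.18, and the median over all genes tested was 1.15. In bam testes the ratio of replicate 2 to replicate 1 ran from 0.936 to 1.05, with a median of 0.985, beside 1.001 over all genes. On the log2 scale the 10 genes deviated from their own means by a median of 0.16 in Phf7 bam replicate 2 and -0.08 in replicate 1, against 0.10 and -0.08 for all genes. The sign of several changes rested on a single library. Without Phf7 bam replicate 2, Not1, Pop2, pAbp, tral and Fmr1 were at -0.06, -0.05, -0.04, -0.06 and -0.12. Without Phf7 bam replicate 1 all 10 changes were positive, at 0.04 to 0.29, those of twin and smg included. The changes of twin and smg were also positive without bam replicate 1, at 0.02 each. Quantile normalization also turned the sign of tral, Not1 and Fmr1, to between -0.04 and -0.03. No direction is therefore given for these genes. The shift with a Phf7 bam library left out was not confined to the 10 genes. Over all genes tested the median change was 0.11 without Phf7 bam replicate 1 and -0.06 without replicate 2.

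**Figure D4:**
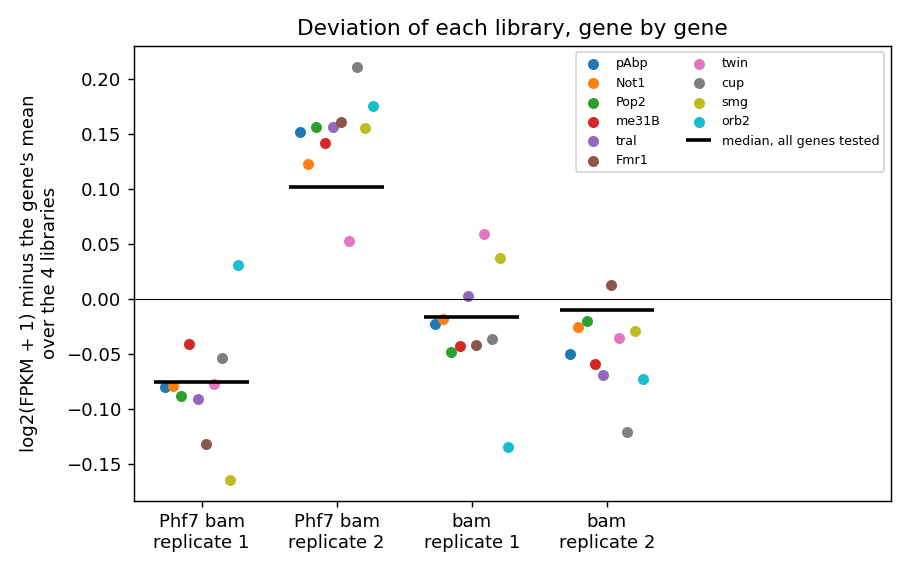
Deviation of each library from the gene's own mean over the 4 libraries, in log2(FPKM + 1), for the 10 genes (points) and as the median of all genes tested (black lines). In Phf7 bam replicate 2 all 10 genes lie above 0 and all but twin above the median of all genes, which is 0.10.

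Library and tissue values beside these results were as follows. FPKM summed to 655072 and 662056 in Phf7 bam libraries and to 650127 and 654783 in bam libraries, and the spacing of the lowest values put the depth of the Phf7 bam libraries at 1.15 and 1.41 times that of bam replicate 1, and that of bam replicate 2 at 1.23 times. Phf7 had 18.8 and 22.9 FPKM in Phf7 bam testes, against 173 and 152 FPKM in bam testes (limma adjusted p = 0.00706). bam itself had 27.6 and 32.6 FPKM in Phf7 bam testes and 28.6 and 26.5 FPKM in bam testes, above 67.6% of the genes tested, so its level does not show the mutation that all 4 labels name. Of the early germline markers, vas had 173 and 186 FPKM in Phf7 bam and 188 and 173 FPKM in bam testes. zpg had 75.6 and 85.3 FPKM in Phf7 bam and 90.0 and 84.7 FPKM in bam testes, and both genes overlapped. nos, which is also a partner gene below, was higher in both Phf7 bam libraries, as were 20.5% of all genes tested. The 3 summed to 420.1 and 476 FPKM in Phf7 bam and 414 and 386 FPKM in bam testes. Of the 3, only nos was apart between the genotypes. The 3 cyst lineage markers overlapped, summing to 40.6 to 47.2 FPKM. The 5 spermatocyte markers summed to 6.09 to 8.64 FPKM, with topi at 4.08 and 5.74 FPKM in Phf7 bam and 3.04 and 2.64 FPKM in bam testes, Rbp4 at 1.04 and 1.54 FPKM in Phf7 bam and 2.97 and 2.51 FPKM in bam testes, and the other 3 at 1.01 FPKM or less. The 3 accessory gland markers summed to 698 and 12.2 FPKM in Phf7 bam and 3.53 and 312 FPKM in bam testes, so this tissue marked 1 library of each genotype. The summed fat body markers had 23.6 and 36.6 FPKM in Phf7 bam and 5.94 and 17.5 FPKM in bam testes, where Lsp2 was higher in both Phf7 bam libraries and Fbp1 and Fbp2 overlapped. The gut markers summed to 107 and 136 FPKM in Phf7 bam and 88.0 and 65.4 FPKM in bam testes, nearly all of it Amy-p, and Jon65Aiv and Mal-A1 overlapped. Both haemocyte markers, Hml and NimC1, were higher in both Phf7 bam libraries, at a sum of 6.66 FPKM in each, against 4.25 and 2.66 FPKM in bam testes. NimC1 was low, at 0.766 to 1.88 FPKM. The same separation, also seen for topi, Lsp2 and Amy-p, was found for 20.5% of all genes tested. Sums of hub (33.0 to 38.7 FPKM) and muscle sheath markers (249 to 339.7 FPKM) overlapped. Most of the hub sum was Fas3 (29.2 to 33.6 FPKM), which overlapped, as did hh. The hub marker upd1 was below the filter, at 0.195 and 0.207 FPKM in Phf7 bam and 0.258 and 0.276 FPKM in bam testes. None of the tested markers was called in the main fit. With robust moderation in limma, Hml (adjusted p = 0.00433) and Amy-p (adjusted p = 0.00222) were called higher in Phf7 bam testes. The other tested markers were not, and robust moderation called 3.42% of all genes tested. Their part in the values of the 10 genes was not tested. In whole testes, fewer cells of a type and less RNA per cell cannot be told apart.

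Most of the 10 genes are annotated with long and varied transcripts. By the Ensembl annotation of the later build BDGP6, matched by identifier or, for orb2 and pAbp, by symbol, the longest 3′ untranslated region was above the median of tested coding genes (287 nt) in 9 of the 10, with a median of 1673 nt. orb2 had the longest, at 5791 nt, longer than in 99.5% of the 7909 coding genes with such a value. me31B was the exception at 124 nt. The number of annotated transcripts was above the median of 2 in 8 of the 10 genes, with 11 for Fmr1 and 9 for tral. Gene-level FPKM sums over such isoforms, and isoform usage was not analysed here.

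The other genes of these pathways were followed through 6 lists of 44 genes, of which 43 passed the filter and osk, at 0.11 to 0.35 FPKM, did not. In limma 0 of the 43 were called, and 3 had an unadjusted p under 0.05, or 7.0%, beside 6.13% of all genes tested. Robust moderation called 2 of them, Gld2 higher and png lower, beside 3.42% of all genes tested.

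Of 6 further CCR4-NOT subunits none was called, and their median change was 0.07, with -0.05 without Phf7 bam replicate 2 and 0.18 without replicate 1. Rcd-1 (CAF40), the subunit of the highest level, had 144 and 172 FPKM in Phf7 bam testes and 167 and 160.0 FPKM in bam testes. Not10 had the lowest p of these, at 13.8 and 15.4 FPKM in Phf7 bam and 12.8 and 13.1 FPKM in bam testes (change 0.17, limma adjusted p = 0.906).

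Among the PAN2-PAN3 deadenylase and the cytoplasmic poly(A) polymerases, 0 of 4 were called and the median change was 0.15, with 0.013 without bam replicate 1, 0.28 without bam replicate 2 and 0.04 for those with a mean of at least 5 FPKM. Gld2, a poly(A) polymerase of the male germline, had 3.43 and 3.73 FPKM in Phf7 bam testes, against 1.88 and 1.58 FPKM in bam testes. Its change of 0.75 (SE 0.184, 95% interval 0.26 to 1.23) missed the threshold in limma (adjusted p = 0.527) and passed it with robust moderation (limma adjusted p = 0.0216, with 0.899 the highest over the alternative settings). The Gld2 locus lies wholly inside that of SKIP on the same strand, listed at 16.8 and 18.8 FPKM in Phf7 bam and 15.5 and 15.9 FPKM in bam testes. PAN3, the highest of this list, had 38.3 and 48.0 FPKM in Phf7 bam and 40.5 and 44.0 FPKM in bam testes.

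In the decapping and 5′ decay list 0 of 7 were called (median 0.13, with -0.013 without Phf7 bam replicate 2, 0.21 without replicate 1 and 0.09 without bam replicate 1). Dcp2, the decapping enzyme, had 56.5 and 66.1 FPKM in Phf7 bam and 55.1 in both bam libraries. Patr-1, a decapping activator that binds Me31B, had 33.0 and 36.0 FPKM in Phf7 bam and 31.4 and 30.4 FPKM in bam testes (change 0.15, limma adjusted p = 0.906). Cap and tail binding partners also had 0 of 6 called, and their median of 0.014 was -0.07 without Phf7 bam replicate 2 and 0.15 without replicate 1. The initiation factor eIF4A had 948 and 1094 FPKM in Phf7 bam and 952 and 955 FPKM in bam testes, and the cap-binding repressor eIF4EHP had 41.7 and 46.4 FPKM in Phf7 bam and 41.6 and 40.8 FPKM in bam testes.

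Of the 17 tested adaptors and RNA-binding partners 0 were called. larp had 146 to 167 FPKM in 3 libraries but was listed at 0 in bam replicate 1, so its fitted change is not read. The other 16 had a median change of 0.04, with 8 above 0 (50%, beside 57.4% of all genes tested), and the median with larp was 0.08. Without Phf7 bam replicate 2 the median of the 16 was -0.10 and without replicate 1 it was 0.15. rin, the G3BP homologue, was the highest, at 346 and 399.9 FPKM in Phf7 bam and 349.8 and 355 FPKM in bam testes. nos, a translational repressor and itself a target of Smaug, had 171 and 205 FPKM in Phf7 bam testes, against 136 and 129 FPKM in bam testes (change 0.49, SE 0.136, limma adjusted p = 0.610; the lowest over the alternative settings was 0.0642, with robust moderation). nos overlaps CG5835 by 2639 bp on the opposite strand, and CG5835 was listed at 0 in both Phf7 bam libraries, against 39.3 and 37.8 FPKM in bam testes. How reads of the shared stretch were divided between nos and CG5835 was not tested.

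The last list holds the regulators of smg translation at egg activation, png, plu and gnu, which form the PAN GU kinase. All 3 had negative changes, where 57.4% of all genes tested had positive ones, and 0 were called. The median of -0.50 is that of plu, at 1 to 2 FPKM; it was -0.80 with a pseudocount of 0.1, and above a mean of 5 FPKM gnu alone remained, at -0.07. The kinase subunit png had 2.13 and 2.60 FPKM in Phf7 bam testes, against 5.61 and 5.54 FPKM in bam testes. Its change of -0.97 (SE 0.160, 95% interval -1.39 to -0.55) had a limma adjusted p of 0.247, with a range over the alternative settings of 0.000109 (robust moderation) to 0.457. plu, at 1.05 and 1.07 FPKM in Phf7 bam and 2.13 and 1.74 FPKM in bam testes, was also below in both libraries, as were 14.0% of all genes tested (limma adjusted p = 0.899). gnu, at 28.3 and 31.2 FPKM in Phf7 bam and 34.1 and 28.4 FPKM in bam testes, overlapped between the genotypes.

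**Figure D5:**
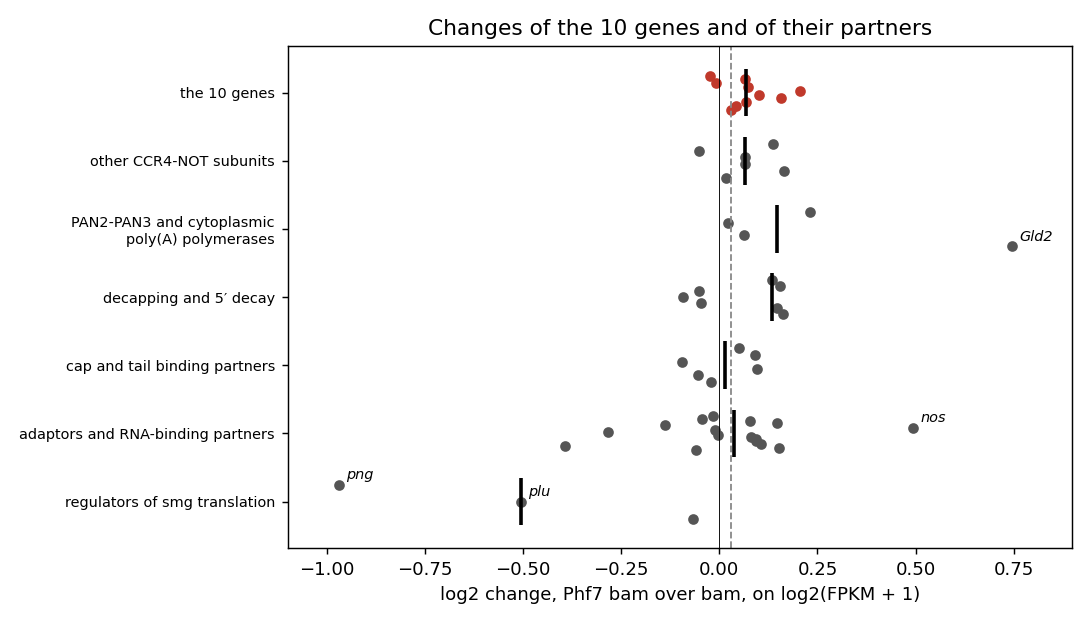
Log2 change, Phf7 bam over bam, of the 10 genes (red) and of 6 lists of partner genes (grey), on the log2(FPKM + 1) scale; thick bars are list medians, without larp, and the dashed line is the median of all genes tested. larp, listed at 0 in 1 library, is off the axis; Gld2 at 0.75, nos at 0.49, plu at -0.50 and png at -0.97 lie furthest from 0.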

How the data were processed

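Directional libraries were made from RNA captured on oligo-dT beads, per the labels' protocols. Build dm3 and the tools Cuffdiff, Cufflinks and TopHat2 stand in the submitters' processing notes, without versions or roles; neither the annotation nor the use of strand is stated there. FPKM values were deposited by the authors, 1 file for each library, per the file headers. These are not counts, absolute depth is unknown, and no count test was run. Relative depth came from the most frequent ratio between libraries among values up to 0.15 FPKM, which held for 21.4% to 22.8% of such genes. Deposited FPKM of tral, Not1, twin and pAbp lay outside their own deposited intervals in all 4 libraries, so these intervals were not used. Among other genes named here, this was also true of vas, nos, zpg, Amy-p and gnu, and Phf7 lay inside its interval in 1 library. Starts were counted from 1.

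Genes with a mean of at least 1 FPKM were fitted by genotype as log2(FPKM + 1) in limma 3.58.1 (R 4.3.3), with moderation along a trend on expression and two-sided Benjamini-Hochberg adjustment over all 8965 genes; under 0.05 was called. Folds of low genes are understated on this scale. The prior added 2.64 degrees of freedom to the 2 of the residuals. With robust moderation the largest prior was infinite. For genes at that value the shared trend alone set the spread, which makes the adjusted p-values of that setting less cautious. The fit was tested on simulated data. Tables were joined in pandas 2.3.3 under Python 3.11.15 and plotted with matplotlib 3.10.9.

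Replicate numbers were not taken to pair libraries: same-numbered deviations from the genotype means correlated at -0.37 over 8965 genes. The 10 genes and the lists were chosen with earlier results of these data known. In each list the gene of the lowest p, the gene of the highest level and all called genes are named; orb, larp, osk, plu and genes named as overlapping were added after their values were seen. A fit with a library left out has 1 library in that genotype, assumed to vary like the other. Alternatives were pseudocounts of 0.1 and 0.5, no filter or a mean of at least 5 FPKM, equal medians, quantile normalization, robust or untrended moderation, a replicate block and each library left out; a crossed block and a list median without larp were added after seeing the data.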

Additional observations from a re-analysis of the deposited data

How the results depend on the processing

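Over 14 alternative settings none of the 10 genes was called by limma, and 128 of 140 changes kept their direction. With all 4 libraries in the fit, 0 of the 10 genes had an unadjusted p under 0.05 in any setting. Quantile normalization turned tral, Not1 and Fmr1, to -0.0283, -0.0425 and -0.0280, and the rest of the 12 turned with a library left out. The filter, moderation and block settings left each change at its value in the main fit. They could not turn a direction, so their share of the 128 does not show stability. Ranges with each library left out were 0.0102 to 0.193 (me31B), -0.0585 to 0.189 (tral), 0.0249 to 0.290 (cup), -0.0571 to 0.144 (Not1), -0.0894 to 0.0411 (twin), -0.0535 to 0.191 (Pop2), -0.169 to 0.151 (smg), 0.135 to 0.279 (orb2), -0.117 to 0.175 (Fmr1) and -0.0434 to 0.188 (pAbp). The median change of all genes was 0.11 without Phf7 bam replicate 1 and -0.06 without replicate 2.

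Over all genes limma called 21; no filter gave 0 (1051 at an unadjusted p under 0.05), a filter at 5 FPKM 37, robust moderation 307, and leaving out a library 0 to 101, with 0 without either Phf7 bam library (1432 and 979 at an unadjusted p under 0.05), 76 without bam replicate 1 and 101 without bam replicate 2. The replicate block gave 18 calls and called none of the 10 genes. In this balanced design a block cannot alter the size of a change, only its spread. The crossed pairing, added after seeing the data, gave 133 calls and also called none of them. Of the partner genes, robust moderation called 2, and leaving out a library called 0 to 1; the 1 was larp without bam replicate 2, where the lone bam library lists it at 0. Of the 18 calls with equal medians 7 were higher and 11 lower, and likewise of the 18 with quantile normalization. The cause of these differences was not tested. Of 85 list medians under alternatives, 12 moved by at least 1 SD between replicates; leaving out larp was an alternative added after seeing the data. With quantile normalization the medians of cap and tail partners and of adaptors, larp included, were at -0.046 and -0.048, and the first was at -0.012 with equal medians.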
